A study of Mus musculus with 10 samples.

Results

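The genes described here encode the core of the dystrophin–glycoprotein complex: *Dmd*, *Utrn*, *Dag1*, *Sgca*, *Sgcb*, *Sgcd*, *Dtna* and *Sspn*. They were chosen by name, as genes whose products form or anchor this complex, with earlier results of these data known. All 8 are in the count table and all 8 passed the filter on low counts, of 57185 genes with counts and 13451 genes tested. RNA was measured by polyA-enriched RNA sequencing of the apical part of the ventricles (labelled left ventricle) of 10 male mice, 5 per genotype. Both groups were labelled MLPKO, a knockout of *Csrp3*, the gene for muscle LIM protein, which gives a dilated cardiomyopathy, and both carried floxed alleles of *Rrad* (RADfl/fl), the gene for RAD, an inhibitor of the L-type calcium channel. The group called MLPKO-cRADKO (cRADΔ/Δ-MLPKO in the paper) also carried MYH6-MerCreMer, a tamoxifen-inducible Cre recombinase driven by a cardiomyocyte promoter, which the group called MLPKO lacked. Every mouse received tamoxifen once, at 100 mg per kg and 10 weeks of age, and hearts were taken 1 month later, at an age that the labels give as 16 weeks, which does not match 10 weeks plus 1 month. No library of a mouse without the *Csrp3* knockout, without tamoxifen, or with Cre but without floxed *Rrad* was analysed here, so the Cre transgene and the loss of RAD cannot be told apart.

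Dystrophin links the actin cytoskeleton of a muscle cell to dystroglycan in the cell membrane, and dystroglycan binds laminin outside the cell. The sarcoglycans and sarcospan are membrane proteins that hold dystroglycan and dystrophin together, and dystrobrevins and syntrophins are cytoplasmic proteins that bind to dystrophin and carry signalling molecules. The complex lies at costameres, where it spreads the force of contraction to the matrix. Loss of dystrophin or of some of the sarcoglycans gives muscular dystrophy, in some forms with cardiomyopathy. Utrophin is a relative of dystrophin that can take its place.

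The dystrophin gene has several promoters, and the counts of a gene sum the transcripts of all of them. Some starts of *Dmd* are shown as examples of what its value covers, and any other starts of its 16 annotated transcripts are not shown. The RefSeq table used (build GRCm38.p6) holds windows before the starts of 7 of the 8 genes. *Dtna* is missing from it. The windows below were placed on GRCm39 by exact match and hold no exon bases of the annotation. The first lies directly before the first annotated base of *Dmd*, where its longest annotated transcript, of 79 exons and 14945 bases, begins (chrX:81992226-81992473, plus strand, 248 bases), and its capitals mark a MEF2 motif, a CArG box and the E-boxes (CANNTG). The second lies within the gene, directly before the start at 84091901 of a short form (chrX:84091651-84091900, plus strand, 250 bases), and holds none of these motifs.
Dmd first start: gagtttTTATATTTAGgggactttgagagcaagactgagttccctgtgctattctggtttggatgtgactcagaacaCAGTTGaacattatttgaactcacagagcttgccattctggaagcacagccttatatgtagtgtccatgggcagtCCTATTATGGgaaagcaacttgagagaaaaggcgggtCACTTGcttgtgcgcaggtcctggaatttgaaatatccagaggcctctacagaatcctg
Dmd internal start: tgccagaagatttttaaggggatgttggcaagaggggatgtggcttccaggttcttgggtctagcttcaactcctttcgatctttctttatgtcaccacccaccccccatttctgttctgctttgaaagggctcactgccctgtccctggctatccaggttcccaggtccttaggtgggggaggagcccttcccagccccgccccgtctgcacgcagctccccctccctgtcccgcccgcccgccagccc
MEF2 and CArG motifs, bound by muscle transcription factors, were searched by their usual consensus on both strands together with the E-box and the GATA motif (AGATAA, or the same with T in place of the first base, G in place of the last, or both). The MEF2 match begins 242 bases and the CArG match 96 bases before the first annotated base, and none of the matches overlaps another. Among 32536 RefSeq windows of 250 bases, 1.5% held a CArG box, 2.9% a MEF2 motif, 26.5% a GATA motif and 66.2% an E-box. A match describes letters only, and the table of counts per gene does not say which start was used.

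Total counts were 33457406 to 49965101 per mouse in MLPKO and 33759811 to 46280882 in MLPKO-cRADKO. *Rrad* had 262, 268, 139.7, 163 and 282 CPM (counts scaled to a common library size with TMM factors) in MLPKO mice 1 to 5, and 196, 135, 202, 146 and 176 CPM in MLPKO-cRADKO mice 1 to 5. The genotypes overlapped, with a log2 fold change of −0.38 (edgeR adjusted p = 0.29). *Rrad* counts cover the whole gene and every cell of the tissue, and so do not check the deletion. *Csrp3*, labelled as knocked out in both groups, was counted in all 10 mice, with 1585, 3261, 1069, 1009 and 1956 CPM in MLPKO and 1177, 840, 691, 781 and 712 CPM in MLPKO-cRADKO (log2 fold change −1.08, edgeR adjusted p = 0.0666). Its level thus does not show the knockout that the label names, and counts per gene do not say which of its exons were read. The defining genes of cardiomyocytes were high in all 10 mice, with 52048 to 76856 CPM summed over 8 markers, while 5 of 8 skeletal muscle markers were too low to test. Of the 3 tested, *Mybpc2* had means of 46.7 CPM in MLPKO and 36.6 CPM in MLPKO-cRADKO. The means of *Tnni2* and *Actn3* were 0.389 to 0.583 CPM, and none of the 3 passed the edgeR test. The summed markers of some cell types differed with genotype. The cardiomyocyte sum lay at 66157 to 76856 CPM in MLPKO and at 52048 to 63924 CPM in MLPKO-cRADKO, without overlap, and the endothelial sum at 843 to 973 CPM and 1003 to 1143 CPM, also without overlap. The smooth muscle and pericyte sum, at 802 to 1014 CPM and 1024 to 1192 CPM, did not overlap either, while the fibroblast, macrophage, skeletal muscle and Schwann cell sums overlapped. A sum follows its highest genes, and *Myh6* was the largest part of the cardiomyocyte sum (means of 36497 CPM in MLPKO and 29888 CPM in MLPKO-cRADKO). Of the 8 cardiomyocyte markers 7 had a negative log2 fold change (47.9% of all genes tested) and *Tnni3* a positive one (0.13). *Tnnt2* alone passed the edgeR test, where 1.8% of all genes were called lower. At an unadjusted p under 0.05, 3 of the markers were lower and none higher (11.5% and 10.1% of all genes). DESeq2 called 2 of them lower (5.84% of all genes) and limma-voom 1 (1.61% of all genes).

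All 8 genes had a lower mean in MLPKO-cRADKO than in MLPKO, and the differences were small. The log2 fold changes ran from −0.52 for *Dtna* to −0.04 for *Sgcb*, with a median of −0.19, against a median of 0.01 over all genes tested and 47.9% of all genes with a negative sign. *Dtna* alone passed the test, and it fell by 0.52 on the log2 scale. That is 1 of 8 genes, where 1.8% of all genes tested were called lower and 2.74% in either direction (edgeR quasi-likelihood test, adjusted p under 0.05). At an unadjusted p under 0.05, 5 of the 8 were lower, against 11.5% of all genes. DESeq2 called 3 of the 8 lower, *Dtna*, *Dmd* and *Sspn*, where it called 5.84% of all genes lower and 9.65% in either direction. limma-voom called *Dtna* only, where it called 1.61% of all genes lower and 2.53% in either direction. The mice of the genotypes did not overlap for 2 of the 8 genes, *Dtna* and *Sspn*, both lower in MLPKO-cRADKO, which was the case for 3.98% of all genes, and 6.62% did not overlap in either direction. In bulk RNA of a tissue, fewer cells of a type and less RNA per cell cannot be told apart.

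**Figure D1:**
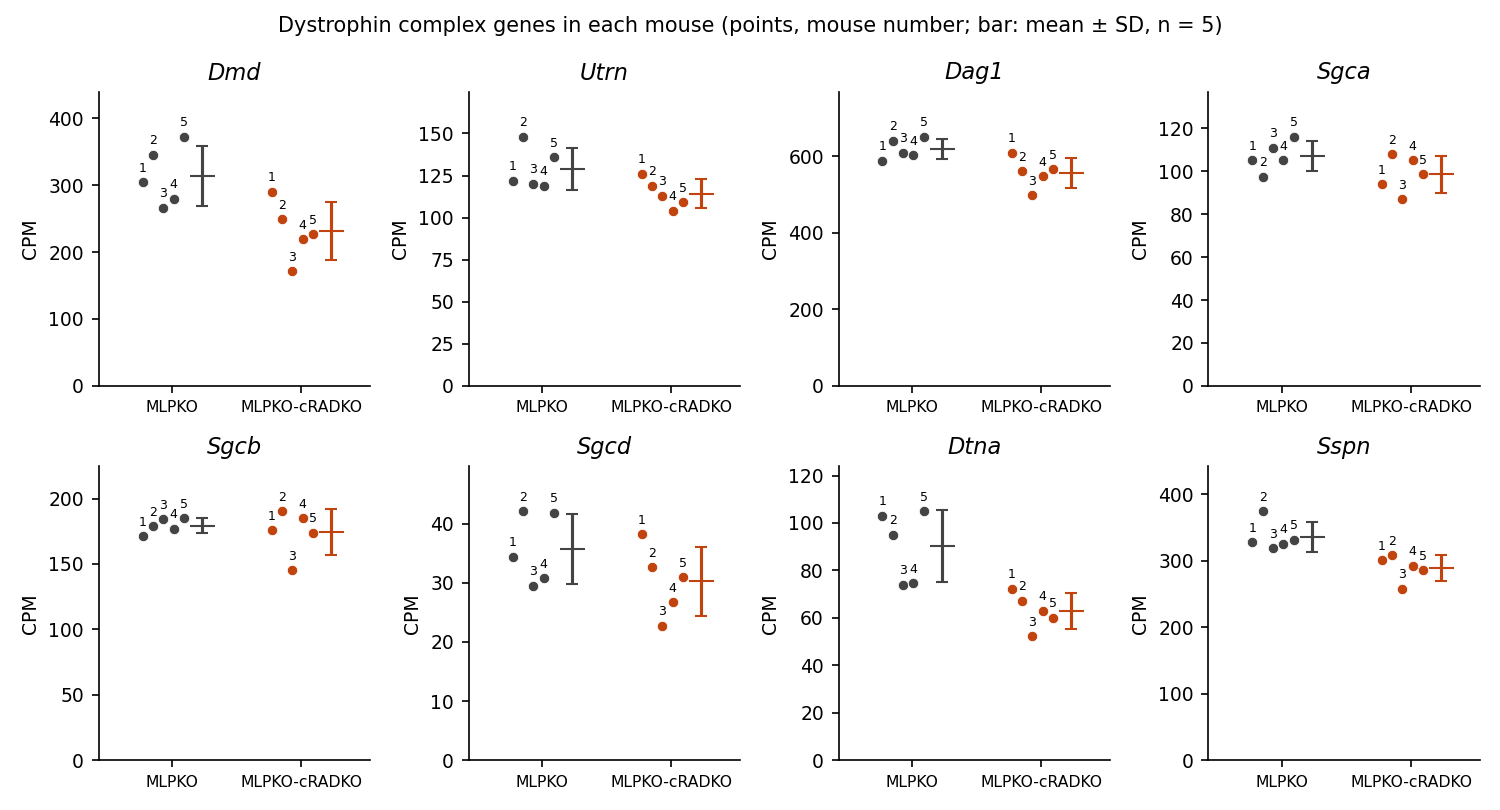
CPM (y axis, from 0) of the 8 genes in each mouse of MLPKO (grey) and MLPKO-cRADKO (orange). Points carry the mouse number and bars give the mean ± SD of 5 mice. All points of MLPKO-cRADKO lie below those of MLPKO for *Dtna* and *Sspn*, and MLPKO-cRADKO mouse 3 is the lowest point in every panel but that of *Utrn*.

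*Dmd* (ENSMUSG00000045103, chromosome X, 81992474 to 84249747, plus strand, GRCm39) encodes dystrophin. Its CPM was 304, 345, 266, 279.9 and 372 in MLPKO mice 1 to 5 and 289.9, 249, 171, 219 and 227 in MLPKO-cRADKO mice 1 to 5. The highest values were those of MLPKO mice 5 and 2 and the lowest that of MLPKO-cRADKO mouse 3, and the genotypes overlapped through MLPKO-cRADKO mouse 1 alone. The means were 314 ± 44.5 and 231 ± 43.3 CPM (SD, n = 5 per genotype). The log2 fold change was −0.44 (SE 0.13, 95% interval −0.73 to −0.15), and it did not pass the test (edgeR adjusted p = 0.0896), while DESeq2 gave an adjusted p of 0.022. With one mouse left out in turn it stayed between −0.53 and −0.34, with edgeR adjusted p from 0.0584 to 0.184. These counts sum all 16 annotated transcripts of the gene.

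*Utrn* (ENSMUSG00000019820, chromosome 10, 12257537 to 12745265, minus strand) encodes utrophin. It had 122, 148, 120.2, 119 and 136 CPM in MLPKO and 126, 119, 113, 104 and 109 CPM in MLPKO-cRADKO. The genotypes overlapped, with MLPKO mouse 2 highest and MLPKO-cRADKO mouse 4 lowest. Its log2 fold change was −0.17 (SE 0.08, edgeR adjusted p = 0.22), from means of 129 ± 12.7 and 114 ± 8.85 CPM (SD, n = 5).

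The ratio of *Utrn* to *Dmd* counts within a library does not depend on how libraries are scaled. It was 0.4, 0.428, 0.452, 0.423 and 0.365 in MLPKO and 0.436, 0.479, 0.657, 0.473 and 0.482 in MLPKO-cRADKO. MLPKO-cRADKO mouse 3 stood above the other 9 mice, and MLPKO-cRADKO mouse 1 lay within the range of MLPKO. The means were 0.414 ± 0.0329 and 0.505 ± 0.0867 (SD, n = 5), and the mean log2 ratio was higher by 0.277 in MLPKO-cRADKO (two-sided exact permutation test over mice, p = 0.0159, where the smallest p of the 252 splits is 0.00794). Leaving out one mouse at a time gave differences of 0.178 to 0.326 with exact permutation p of 0.00794 to 0.0476, and 0.178 was the value without MLPKO-cRADKO mouse 3. Neither gene passed the edgeR test by itself, and the higher ratio went with a lower mean of both. In bulk tissue the ratio can also depend on the mix of cells. The summed cardiomyocyte, endothelial and smooth muscle and pericyte markers differed between the genotypes without overlap, and their part in the ratio was not tested.

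*Dag1* (ENSMUSG00000039952, chromosome 9, 108081833 to 108152333, minus strand) encodes both subunits of dystroglycan, the laminin receptor of the complex. It had 589, 641, 609, 603 and 651 CPM in MLPKO and 609, 561, 498, 548 and 567 CPM in MLPKO-cRADKO. Only MLPKO-cRADKO mouse 1 reached the range of MLPKO. The log2 fold change was −0.15 (SE 0.06, edgeR adjusted p = 0.192), a mean of 90.0% of that in MLPKO.

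None of the sarcoglycan genes passed the edgeR test, and *Sgcb* differed least of the 8 genes. *Sgca* (ENSMUSG00000001508, chromosome 11, 94853605 to 94867273, minus strand), for alpha-sarcoglycan, had 105, 97.4, 111, 105 and 116 CPM in MLPKO and 93.9, 108, 87, 105 and 98.6 CPM in MLPKO-cRADKO, and the genotypes overlapped broadly (log2 fold change −0.12, SE 0.07, edgeR adjusted p = 0.352). *Sgcb* (ENSMUSG00000029156, chromosome 5, 73790086 to 73805133, minus strand), for beta-sarcoglycan, had 171, 179, 184, 177 and 185 CPM in MLPKO and 176, 190.4, 145, 185 and 174 CPM in MLPKO-cRADKO. MLPKO-cRADKO mice held both its highest and its lowest value. Its log2 fold change was −0.04 (95% interval −0.20 to 0.11, edgeR adjusted p = 0.784), and it was 0.02 without MLPKO-cRADKO mouse 3 and 0.01 without TMM scaling, so that its sign rested on that mouse and on the scaling. *Sgcd* (ENSMUSG00000020354, chromosome 11, 46787080 to 47879796, minus strand), for delta-sarcoglycan, had 34.4, 42.1, 29.5, 30.8 and 41.8 CPM in MLPKO and 38.2, 32.6, 22.7, 26.7 and 30.9 CPM in MLPKO-cRADKO. It varied more between mice of a genotype than the other sarcoglycans (SD of log2 CPM 0.24 in MLPKO and 0.286 in MLPKO-cRADKO, against 0.186 and 0.15 for the median gene tested), and its difference of −0.24 had a 95% interval from −0.55 to 0.07 (edgeR adjusted p = 0.356). Without MLPKO-cRADKO mouse 3 the log2 fold change was −0.15 for *Sgcd* and −0.07 for *Sgca*.

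*Sspn* (ENSMUSG00000030255, chromosome 6, 145877367 to 145910950, plus strand) encodes sarcospan, the small membrane protein bound to the sarcoglycans. It had 328, 375, 319, 326 and 332 CPM in MLPKO and 301, 309, 258, 293 and 286 CPM in MLPKO-cRADKO. All 5 mice of MLPKO-cRADKO lay below all 5 of MLPKO, with a gap from 309 to 319 CPM. The log2 fold change was −0.22 (SE 0.07, 95% interval −0.36 to −0.07). This missed the threshold in edgeR (adjusted p = 0.0931) and passed it in DESeq2 (adjusted p = 0.0275).

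*Dtna* (ENSMUSG00000024302, chromosome 18, 23548183 to 23793477, plus strand) encodes alpha-dystrobrevin, the cytoplasmic partner of dystrophin that binds syntrophins. It had 103, 95, 73.9, 74.6 and 105 CPM in MLPKO and 72.3, 67.3, 52.2, 63 and 60 CPM in MLPKO-cRADKO. MLPKO mice 1, 2 and 5 were far above every mouse of MLPKO-cRADKO, while MLPKO mice 3 and 4 were just above the highest of them. The means were 90.3 ± 15.1 and 63.0 ± 7.6 CPM (SD, n = 5). *Dtna* fell to 69.8% of its level in MLPKO (95% interval 58.3% to 83.5%), a log2 fold change of −0.52 (SE 0.12, edgeR adjusted p = 0.0445). DESeq2 gave an adjusted p of 0.00191 and limma-voom 0.0469. The call was lost without any one of MLPKO mice 1, 2 and 5 and MLPKO-cRADKO mice 2, 3, 4 and 5 (edgeR adjusted p from 0.0597 to 0.109), although the log2 fold change stayed between −0.58 and −0.45 in all 10 such fits.

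**Figure D2:**
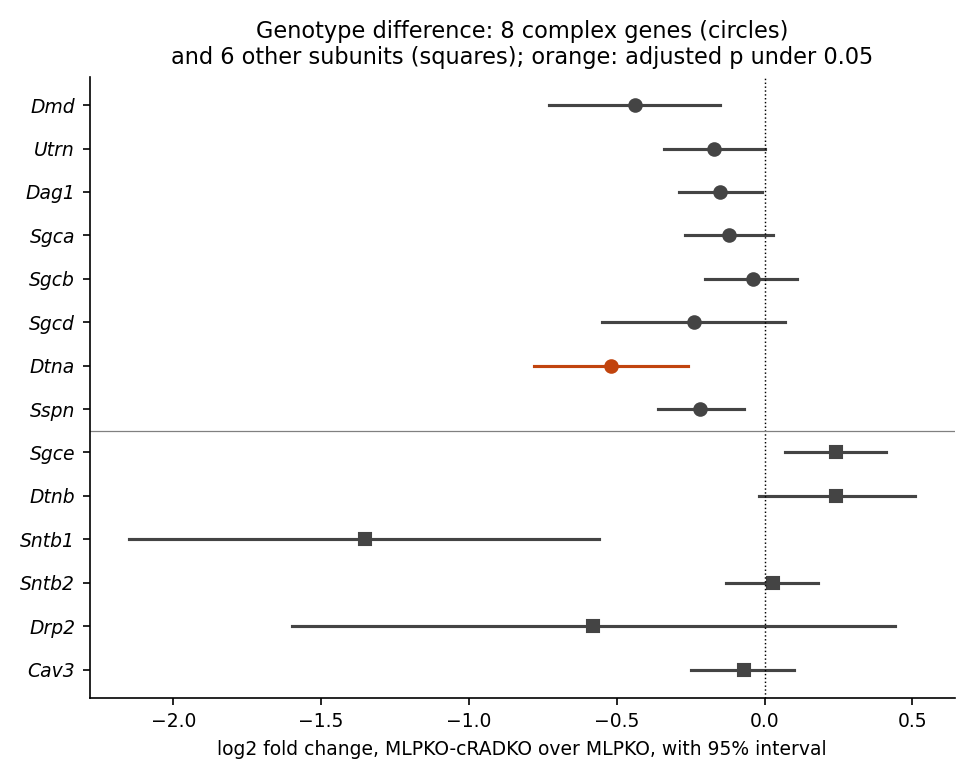
Log2 fold change of MLPKO-cRADKO over MLPKO (x axis) with its 95% interval from edgeR for the 8 genes of the complex (circles, above the line) and 6 of the other subunits (squares). Orange marks *Dtna*, the gene with an adjusted p under 0.05. The interval of *Sntb1* is wide, from −2.15 to −0.56.

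MLPKO-cRADKO mouse 3 had the lowest value of all 10 mice for 7 of the 8 genes, and its deviation from the mean of the 10 mice averaged −0.348 on the log2 scale. At the other end, MLPKO mouse 5 was highest for 4 genes and MLPKO mouse 2 for 3, with mean deviations of 0.25 and 0.218. MLPKO mice 3 and 4 deviated by 0.014 and 0.015 on average, and MLPKO-cRADKO mouse 1 by 0.032. The genotypes overlapped for 6 of the 8 genes. MLPKO-cRADKO mouse 3 also had the lowest cardiomyocyte sum (52048 CPM) and the highest endothelial (1143 CPM), smooth muscle and pericyte (1192 CPM) and macrophage (272 CPM) sums of the 10 mice, whose part in its low values was not tested.

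**Figure D3:**
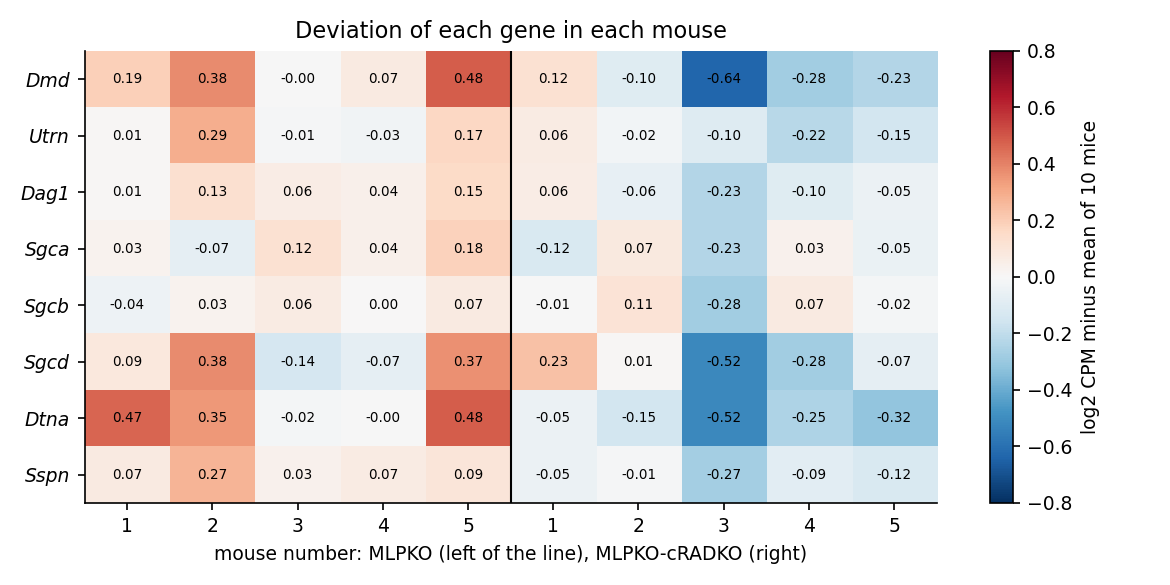
Deviation of each gene (rows) in each mouse (columns, MLPKO left of the line and MLPKO-cRADKO right) from its mean over 10 mice, in log2 CPM (colour and printed value). The column of MLPKO-cRADKO mouse 3 is negative for all 8 genes, and those of MLPKO mice 2 and 5 are positive for all but *Sgca* in mouse 2.

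When every library was scaled to its summed counts of 8 cardiomyocyte markers in place of TMM (a scaling chosen after seeing the data), the median log2 fold change of all genes moved up by 0.278, to 0.29. All 8 genes lay below that median, as they did with TMM. A scaling that moves all genes alike hardly changes their places relative to the median, so this outcome was set in advance. Relative to the median, *Dtna* was at −0.52 on the log2 scale (−0.53 with TMM) and *Dmd* at −0.44 (−0.45 with TMM). The other 6 were at the same place as with TMM to within 0.01. As the scaling moved all genes alike and 5122 of the 5238 genes it called were higher, the unshifted signs and calls under it say nothing particular to the 8 genes. Whether the level per cardiomyocyte differed was not tested. The marker list itself was uneven, with 7 of 8 negative (47.9% of all genes) and a median log2 fold change of −0.20. *Tnnt2*, cardiac troponin T, was the gene called (−0.57, edgeR adjusted p = 0.0184), where 1.8% of all genes were called lower.

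**Figure D4:**
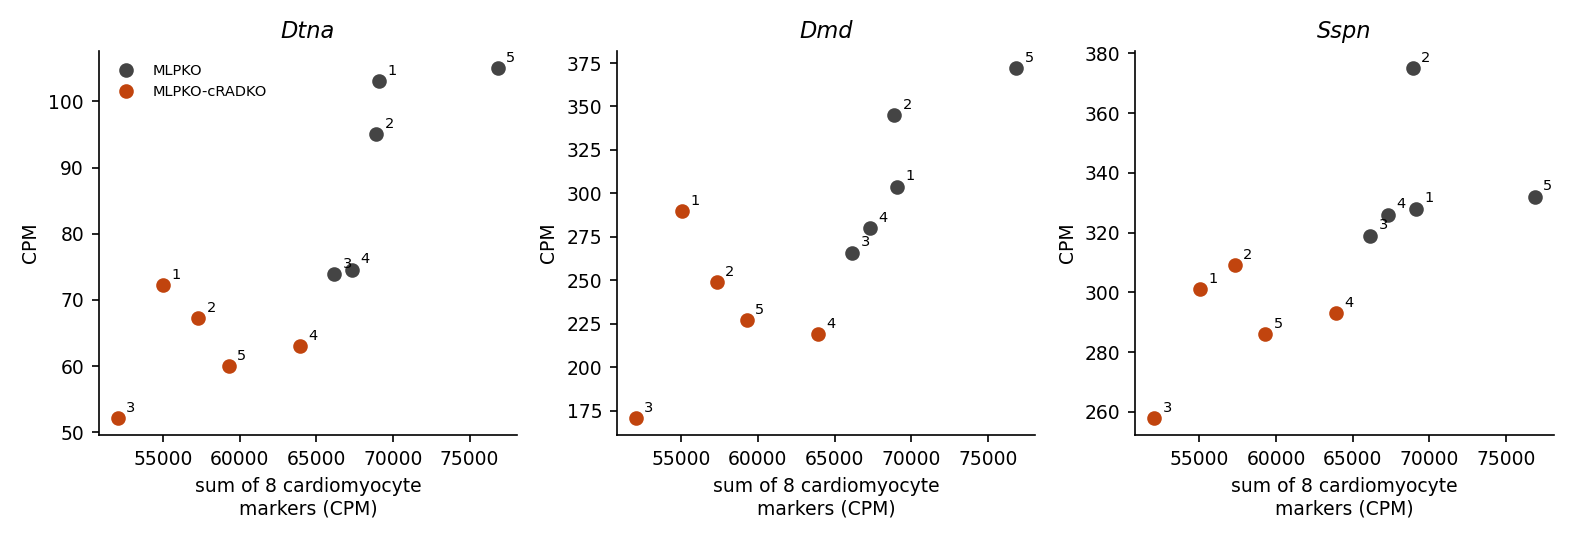
CPM of *Dtna*, *Dmd* and *Sspn* (y axes, not from 0) against the summed CPM of 8 cardiomyocyte markers (x axis) in each mouse, numbered, for MLPKO (grey) and MLPKO-cRADKO (orange). The genotypes are apart on the x axis, at 52048 to 63924 CPM and 66157 to 76856 CPM, and MLPKO-cRADKO mouse 3 is lowest on both axes.

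Levels of different genes were compared as CPM per kilobase of exon. In MLPKO the order was *Dag1* (88.9 ± 3.75), *Sspn* (61.4 ± 4.12), *Sgcb* (34.1 ± 1.1), *Sgca* (32.6 ± 2.16), *Dmd* (13.0 ± 1.85), *Utrn* (7.12 ± 0.702), *Dtna* (4.32 ± 0.722) and *Sgcd* (3.00 ± 0.501 CPM per kilobase, SD, n = 5). The order was the same in MLPKO-cRADKO, from 80.0 ± 5.75 for *Dag1* to 2.54 ± 0.495 for *Sgcd*. In both genotypes the ranges over mice overlapped between *Sgcb* and *Sgca* and between *Dtna* and *Sgcd*, and between no other neighbours. The length used matters most for *Dtna*, whose exons span 20918 bases over 85 annotated transcripts while its longest transcript has 6882 bases. With the longest transcript as length, the mean of *Dtna* ranked above that of *Utrn* and the mean of *Sgca* above that of *Sgcb*, but the ranges of *Dtna* and *Utrn* and of *Utrn* and *Sgcd* overlapped in both genotypes, and those of *Sgca* and *Sgcb* in MLPKO-cRADKO. *Dag1* and *Sspn* stayed in the first places and *Dmd* in the middle on both lengths.

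**Figure D5:**
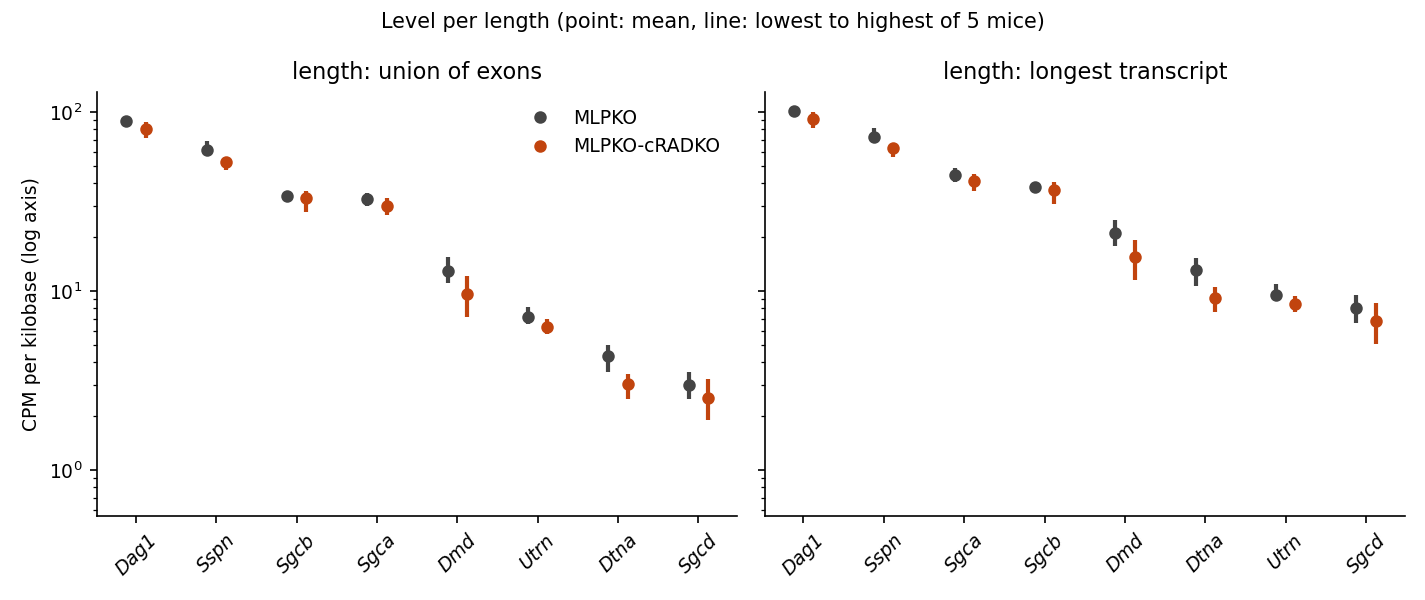
CPM per kilobase (y axis, log scale) of the 8 genes, in the order of MLPKO, with length taken as the union of exons (left) or the longest transcript (right). Points are means and lines run from the lowest to the highest of 5 mice of MLPKO (grey) and MLPKO-cRADKO (orange). *Dag1* is highest and *Sgcd* lowest on both lengths.

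Of 12 other subunits of the complex and its relatives, 8 had enough counts to test. None passed the edgeR test. At an unadjusted p under 0.05, 1 was lower and 1 higher (11.5% and 10.1% of all genes). DESeq2 called 1 lower (5.84% of all genes) and limma-voom none, and the median log2 fold change of the 8 was −0.09. *Sntb1*, for beta-1-syntrophin, had the largest difference of them. It had 12, 35.6, 13.5, 9.12 and 8.71 CPM in MLPKO and 8.32, 6.88, 5.30, 5.08 and 5.2 CPM in MLPKO-cRADKO. All of MLPKO-cRADKO lay below all of MLPKO, and MLPKO mouse 2 was far above the rest. The log2 fold change was −1.35 (SE 0.36, edgeR adjusted p = 0.0649, DESeq2 adjusted p = 0.0178). Without MLPKO mouse 2 it was −0.82 with an edgeR adjusted p of 0.0377, and without MLPKO mouse 4 the adjusted p was 0.0377 as well.

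*Sgce*, for epsilon-sarcoglycan, and *Dtnb*, for beta-dystrobrevin, are the relatives of *Sgca* and *Dtna* that cells other than striated muscle also use. *Sgce* had means of 13.4 ± 0.934 and 15.9 ± 1.37 CPM (log2 fold change 0.24, edgeR adjusted p = 0.108), and *Dtnb* 2.26 ± 0.189 and 2.67 ± 0.11 CPM (0.24, adjusted p = 0.277, SD, n = 5), without overlap for *Dtnb*. Neither passed the test, and both means were higher in MLPKO-cRADKO, opposite in sign to *Sgca* and *Dtna*. *Sntb2*, for beta-2-syntrophin, had a log2 fold change of 0.03 (edgeR adjusted p = 0.875), and *Cav3*, for the muscle caveolin, one of −0.07 (adjusted p = 0.635). *Drp2*, a short relative of dystrophin, had 8 to 36 counts per mouse and a 95% interval from −1.60 to 0.44. *Sgcz*, *Sntg1*, *Sntg2* and *Nos1* were not tested, with at most 22 counts in any mouse.

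Dystroglycan binds laminin through sugar chains built by a set of enzymes. Of 18 such genes 16 were tested, and none passed the edgeR test or was called by DESeq2 or limma-voom. At an unadjusted p under 0.05, 1 was higher and none lower (10.1% and 11.5% of all genes). Their median log2 fold change was −0.03. Single log2 fold changes of the list ran from −0.35 to 0.27, and no gene of it was without overlap between the genotypes (6.62% of all genes).

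Of 13 matrix ligands of dystroglycan and their partners 12 were tested, and *Lama4* alone passed the edgeR test, higher in MLPKO-cRADKO, where 0.944% of all genes tested were called higher. limma-voom also called 1 higher (0.914% of all genes). At an unadjusted p under 0.05, 2 were lower and 4 higher (11.5% and 10.1% of all genes), and DESeq2 called 1 lower and 3 higher (5.84% and 3.81% of all genes). The median log2 fold change of the list was 0.01. *Lama4* encodes the laminin alpha-4 chain of vessel basement membranes. It had 82.4, 91.6, 80.0, 80.3 and 87.3 CPM in MLPKO and 112, 127, 99.5, 98.3 and 109 CPM in MLPKO-cRADKO, without overlap (log2 fold change 0.37, SE 0.08, edgeR adjusted p = 0.0295). The adjusted p was 0.0537 to 0.0739 without any one of MLPKO mice 1, 3 and 5 and MLPKO-cRADKO mice 1 and 5. All 8 endothelial markers had a positive log2 fold change as well, with a median of 0.23, as had 7013 of the 13451 genes tested. *Tek*, an endothelial receptor, was called higher (0.32, edgeR adjusted p = 0.0196), which is 1 of 8 markers against 0.944% of all genes. The part of endothelial RNA in the rise of *Lama4* was not tested. *Lama2*, named after its values were seen because its product is the laminin chain of the muscle basement membrane, had means of 197 ± 19.3 and 153 ± 27.1 CPM (SD, n = 5) and a log2 fold change of −0.37 in the other direction (edgeR adjusted p = 0.0944, and 0.0406 without MLPKO-cRADKO mouse 1). The 2 ligand genes with the highest mean, *Hspg2* for perlecan (−0.04) and *Lamb2* for the laminin beta-2 chain (0.01), had edgeR adjusted p of 0.879 and 0.973.

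Among 21 other genes of the costamere and of membrane repair 20 were tested, 17 had a negative log2 fold change (47.9% of all genes) and 2 fell in the edgeR test (1.8% of all genes), *Vcl* and *Des*. None rose in it. The median was −0.16. *Vcl*, for vinculin of the integrin-based anchor of the costamere, had 107, 129.8, 102, 110.1 and 121 CPM in MLPKO and 83.0, 90.5, 74.6, 79.3 and 90.5 CPM in MLPKO-cRADKO (log2 fold change −0.45, SE 0.08, edgeR adjusted p = 0.0216). *Des*, for the intermediate filament desmin, had 3245, 5110, 3054, 2747 and 3509 CPM in MLPKO and 2382, 1956, 2031, 2013 and 1903 CPM in MLPKO-cRADKO (−0.78, SE 0.15, adjusted p = 0.0247). The genotypes did not overlap for either gene. The call of *Vcl* was lost without any one of MLPKO mouse 5 and MLPKO-cRADKO mice 3, 4 and 5 (edgeR adjusted p from 0.0504 to 0.0599), and that of *Des* without any one of MLPKO mice 1 and 5 and MLPKO-cRADKO mice 2, 3, 4 and 5 (0.0512 to 0.0718). *Plec*, for the linker plectin, had a log2 fold change of −0.23 (edgeR adjusted p = 0.182). DESeq2 called 6 of these 20 genes lower and limma-voom 2, where they called 5.84% and 1.61% of all genes lower. At an unadjusted p under 0.05, 7 were lower and none higher (11.5% and 10.1% of all genes). The genotypes did not overlap for 5 of the 20, all lower in MLPKO-cRADKO (3.98% of all genes).

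For each of the 8 genes, the genes whose log2 CPM followed it most closely over the 10 mice were found by the root mean square (RMS) difference after each gene's mean was subtracted. The closest to *Dtna* were *Kcnj12*, a potassium channel gene (RMS difference 0.0805), and *Fgf1*, a growth factor gene (0.0883). The closest to *Dmd* were *Satb1* (0.1) and *Tecrl* (0.108), to *Sspn* *Tpr* (0.035) and *Psmd6* (0.048), and to *Dag1* *Trdn*, for triadin (0.036), and *Capza2* (0.0394). *Cul3* followed *Sgca* with an RMS difference of 0.0464. *Utrn* was followed by *Calu* (0.0404) and *Gng5* (0.0484), *Sgcb* by *Pts* (0.04) and *Trap1* (0.0475), and *Sgcd* by *Prkca* (0.0752) and *Chn1* (0.0828). No pair of the 8 genes was among these closest pairs. Within the complex, *Dag1* and *Sspn* were nearest to each other (0.0704), as were *Sgca* and *Sgcb* (0.0716) and *Dmd* and *Sgcd* (0.113), and *Dtna* was nearest to *Dmd* (0.117).

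The counts of the 8 genes rest on exons that are almost their own. From 0% to 1.62% of exon bases were shared with another gene, the most in *Dtna*, whose shared bases belong to opposite-strand transcripts. *Ilk*, for integrin-linked kinase of the costamere, was left untested for its low counts, and 90.35% of its exon bases are shared with the neighbouring genes *Rrp8* and *Taf10*. *Sspn* shares 1.26% with its antisense gene *Sspnos*, which had 8 to 32 counts per mouse.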

How the data were processed

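RNA with a RIN above 9 from the heart of 10 mice (5 per genotype, one library each) was sequenced after polyA selection. Per the labels, the authors used FastQC, STAR and featureCounts with GRCm39, and the deposited values are raw counts per gene. Settings for strand, read pairs and shared reads are not given in the sources used here. Of counts from 1 to 20, 73.7% to 80.3% per library were even, which is also the case when both reads of a pair are counted, so a count is not always an independent molecule.

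The table holds 60676 rows, of which 3491 without a value were left out. Genes were named by GENCODE M39, which holds 56629 of the 57185 with counts. A gene was tested if 6 or more of the 10 mice exceeded 10 counts and its name was not of the Gm or Rik kind, as the study's methods state. edgeR 4.0.16 in R 4.3.3 fitted the TMM-scaled counts, and its quasi-likelihood test compared the genotypes, with Benjamini-Hochberg adjustment over all genes tested, a threshold of 0.05 and no covariate. DESeq2 1.42.0, which the study used, and limma-voom (limma 3.58.1) were alternatives, as were other scalings and filters, a robust fit, the mouse number as a block and each mouse left out. Log2 CPM used a prior count of 2. The p-values set the difference between the genotypes against the spread between mice.

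The genes and lists were chosen with earlier results of these data known. Genes named are the 8 of the complex, its other measured subunits, *Rrad* and *Csrp3*, in each further list every gene past the threshold (at most 5) and the 2 with the highest mean CPM, and for each of the 8 the 2 genes with the closest profile. *Tnnt2* and *Tek* are the genes called in their marker lists, and *Lama2* is marked where it is named. Some genes that the rule names are not reported here.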

Additional observations from a re-analysis of the deposited data

Results flagged for a closer look

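*Sspn* in MLPKO mouse 2 stood apart from its group, at 375 CPM where the other 4 mice had 319 to 332 CPM. The gap was larger than Dixon's 95% critical value of 0.71 of the range allows for 5 mice. Without this mouse the genotypes still did not overlap.

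The ratio of *Utrn* to *Dmd* counts in MLPKO-cRADKO mouse 3 was 0.657, where the other 4 mice of its genotype had 0.436 to 0.482. *Dmd* was at its lowest of the 10 mice there, at 171 CPM, while *Utrn* was at 113 CPM, within the range of its group. These were 2 of 18 groups of values checked, and chance alone gives about 1 in 20.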

How the results depend on the processing

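Over 11 fits with another scaling, filter, tool or model and 10 fits with one mouse left out, 150 of the 168 values of the 8 genes kept their direction and their side of the threshold. DESeq2 added calls at about the same log2 fold change for *Dmd* (−0.44), *Sspn* (−0.22) and *Csrp3* (−1.08), so that 3 genes of the complex and 8 genes lower and 3 higher in the 4 pathway lists were called, where it called 1298 genes in all against 369 by edgeR. The cause was not tested.

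With libraries scaled to the cardiomyocyte markers, a choice made after seeing the data, the log2 fold change was 0.11 for *Utrn*, 0.13 for *Dag1*, 0.16 for *Sgca*, 0.23 for *Sgcb*, 0.04 for *Sgcd*, 0.06 for *Sspn*, −0.23 for *Dtna* and −0.79 for *Csrp3* (edgeR adjusted p = 0.0389). It was 0.21 for *Cav3*, 0.24 for *Hspg2* and 0.05 for *Plec*, and 0 of the 8 genes were called lower, 1 higher, and 20 genes of the pathway lists higher. These values hold the shift of 0.278 that this scaling gave the median of all genes, so their signs and calls are not evidence about the genes. Without any scaling factor *Sgcb* was at 0.01 and *Hspg2* at 0.02. The other genes of the complex were then at −0.38 (*Dmd*), −0.11 (*Utrn*), −0.10 (*Dag1*), −0.06 (*Sgca*), −0.18 (*Sgcd*), −0.46 (*Dtna*) and −0.16 (*Sspn*). The median of all genes moved up by 0.057 in that fit, to 0.07.

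Leaving out each mouse gave log2 fold changes that ranged from −0.07 to 0.02 for *Sgcb*, from −0.58 to −0.45 for *Dtna*, from −1.23 to −0.74 for *Csrp3*, from −0.01 to 0.07 for *Sntb2*, from −0.09 to 0.08 for *Hspg2* and from −0.04 to 0.04 for *Lamb2*. The number of the 8 genes called lower was 0 to 1, of pathway genes called lower 0 to 5 and higher 0 to 1, and of genes of the complex without overlap 2 to 4 (4 without MLPKO-cRADKO mouse 1). The number of all genes called was 50 to 826.

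With the longest transcript as length, the level in MLPKO and MLPKO-cRADKO was 101.0 and 91.2 CPM per kilobase for *Dag1*, 72.9 and 62.8 for *Sspn*, 44.5 and 41.0 for *Sgca*, 38.0 and 36.9 for *Sgcb*, 21.0 and 15.5 for *Dmd*, 13.1 and 9.15 for *Dtna*, 9.51 and 8.43 for *Utrn* and 8.02 and 6.78 for *Sgcd*. The shorter length itself raises every value.

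Mouse numbers are shared by the genotypes but belong to different animals, and same-numbered mice did not deviate together (correlations from −0.042 to 0.152). Only mice 1 and 3 matched best with their own number. With the number as a replicate block, 281 genes were called, *Dtna* had an edgeR adjusted p of 0.0284 at a log2 fold change of −0.51 and no call in the complex or the pathway lists changed, and the *Utrn* to *Dmd* difference of 0.277 had an exact permutation p of 0.0625 over sign flips, the smallest that 5 pairs allow. Depth did not limit the 8 genes, which had at least 830 counts in each mouse.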

Other observations

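The markers of other cell types gave values beside which the 8 genes can be read. All 8 macrophage markers had a positive log2 fold change, with a median of 0.53 and summed levels of 119.6 to 174 CPM in MLPKO and 149 to 272 CPM in MLPKO-cRADKO, which overlapped. None of the 8 passed the edgeR test, while all 8 had an unadjusted p under 0.05 (10.1% of all genes were higher at that threshold), DESeq2 called 4 higher (3.81% of all genes) and limma-voom 0. Of the smooth muscle and pericyte markers 7 were tested, with 2 negative and 5 positive and a median of 0.14. *Acta2*, smooth muscle actin, and *Rgs5*, a pericyte gene, rose (log2 fold change 1.24 and 0.44, edgeR adjusted p = 0.0461 and 0.0319). These were 2 of 7 markers, where 0.944% of all genes tested were called higher. *Cnn1*, calponin, had the largest difference in size and in the other direction (−2.17, edgeR adjusted p = 0.103), with 54.4 CPM in MLPKO mouse 2 and 2.08 to 8.27 CPM in the other 9, and *Myh11* and *Pdgfrb* were at 0.01 and −0.01. The list had sums of 802 to 1014 CPM and 1024 to 1192 CPM that did not overlap, and the 5 genes named from it were chosen after their values were seen.

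The fibroblast markers showed no shared direction, with 5 of 8 negative, a median of −0.03 and sums of 1361 to 1995 CPM and 1110 to 2043 CPM. None of the 8 passed the edgeR test, the unadjusted threshold, DESeq2 or limma-voom. Among Schwann cell markers, which were included because *Drp2* and *Utrn* are also used by nerve sheath cells, 7 of 8 were tested, 6 were negative with a median of −0.16, and none passed any of these thresholds.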
